A study of Arabidopsis thaliana with 12 samples.

Results

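The genes described here encode proteins of the cytosolic ribosome of Arabidopsis thaliana. They were 38 loci, taken by locus code from the 28775 genes of the count tables. Of these, 15 encode proteins of the large subunit (60S) and 23 encode proteins of the small subunit (40S). The members fall into 28 protein families, and 9 of these families are represented by more than 1 gene, so that paralogues can be set beside each other. The choice of loci did not use the measured values, although it was made with earlier results of these data known.

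Seedlings of ecotype Col-0 gave 12 RNA sequencing libraries in 4 groups of 3. The SnRK1 line carries a knockout of the first catalytic subunit of SnRK1 together with an inducible knockdown of the second. Both it and the wild type it was compared with were kept for 6 d on Est, the additive as the labels name it, from 14 d of age. In the S1 line bZIP1 and bZIP53 are knocked out, bZIP2, bZIP11 and bZIP44 are targets of an inducible knockdown, and the plants grew for 5 d longer before 1 d of Est. Its own wild type was treated in the same way. All plants were 3 weeks old, had a night prolonged by 6 h and were harvested together. All 12 libraries had Est and the prolonged night, and responses to these are not measured here. The sources used here do not name the promoter of the inducible constructs or say whether a line is 1 clone.

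Each ribosome carries 1 copy of most of its proteins, and plants encode nearly every one of these proteins in a small family of genes. The large subunit holds the peptidyl transferase centre and the tunnel through which the new chain leaves, and the small subunit reads the messenger. Making ribosomes is among the most costly activities of a growing cell. In Arabidopsis the TOR kinase favours it when sugar and light are available, and SnRK1, an energy-sensing kinase, acts when they are short. The S1 group bZIPs are transcription factors that act downstream of SnRK1 in starvation.

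The libraries held between 3760168 and 9403687 counts. Factors of the trimmed mean of M values (TMM), which correct for library composition, ran from 1.22 to 1.38 in the SnRK1 line, against 0.827 to 0.923 in its wild type. The 10 most abundant genes took 4.1% to 5.27% of counts in that line and 10.8% to 12.3% in its wild type. KIN11, the second catalytic subunit, had 28.3, 29.0 and 43.4 TMM-normalised CPM (counts scaled to a common library size) in the SnRK1 line, against 98.4, 114 and 85.4 CPM in its wild type. It was also called lower in the S1 line, which had 40.3, 44.0 and 46.1 CPM, against 76.8, 84.2 and 65.4 CPM in its wild type (log2 fold change -0.80, edgeR adjusted p = 0.0135). KIN10, labelled as knocked out, had 60.2 to 65.6 CPM in the SnRK1 line and 78.5 to 99.6 CPM in its wild type. bZIP1 had 17.9 to 26.6 CPM in the S1 line, against 119 to 143 CPM in its wild type, and bZIP53 had 15.1 to 17.8 CPM, against 71.9 to 89.5 CPM. The knockdown targets of the S1 line were not called lower: log2 fold changes were 0.01 for bZIP2, -0.20 for bZIP11 and 0.85 for bZIP44, with edgeR adjusted p of 0.979, 0.872 and 0.322. bZIP2 averaged 66.66 CPM in the S1 line and 66.08 CPM in its wild type. bZIP11 averaged 1.179 and 1.418 CPM and bZIP44 1.935 and 1.0 CPM, in the same order. These levels are near the minimum of 1.5 CPM for testing, so a knockdown of bZIP11 or bZIP44 could hardly be seen. Directions given below for the S1 line therefore belong to plants in which the labelled knockouts were seen in the counts and the labelled knockdown was not.

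Most ribosomal protein genes were more abundant in the SnRK1 line than in its wild type. By edgeR's quasi-likelihood test, with p adjusted by Benjamini-Hochberg over 18388 genes and a threshold of 0.05, 29 of the 38 rose, 1 fell and 8 did not pass the test. Of all genes tested, 35.4% were called higher and 33.0% lower. The median log2 fold change was 0.62 for the ribosomal protein genes and 0.04 for all genes tested. In 31 of the 38 genes every SnRK1 line library was above every wild-type library, and in 1 every library was below; the same held for 36.9% and 34.0% of all genes tested. 10 genes rose at least 2-fold. For 2 genes, RPSAb among them, the filter on low counts was passed through the SnRK1 line, which fixes the direction in which they could differ. Without such genes 27 of 36 were called higher and 1 lower, with a median of 0.58, against 30.9% and 36.1% of the other genes tested and a median of -0.07.

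**Figure D1:**
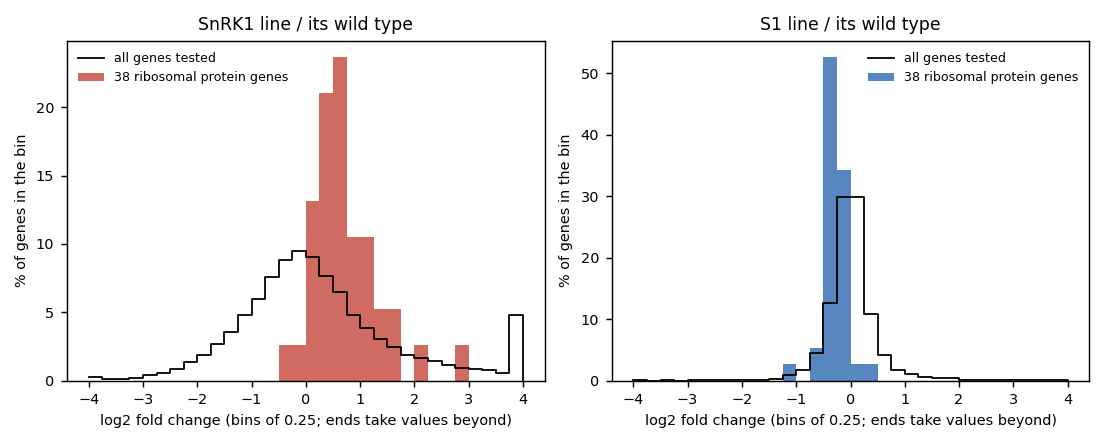
Distribution of log2 fold changes in bins of 0.25 for the 38 ribosomal protein genes (bars) and all 18388 genes tested (line), each as a percentage of its set, for the SnRK1 line against its wild type (left) and the S1 line against its wild type (right). Values beyond the axis are counted in the end bins. The bars lie mostly above 0 on the left, where their median is 0.62, and mostly below 0 on the right, where it is -0.29.

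The 38 genes together took 0.781% of the counts in the SnRK1 line and 0.371% in its wild type. Summed, they reached 7755, 8359 and 7331 CPM of the raw totals in the 3 libraries of the line, against 3836, 3475 and 3826 CPM in those of its wild type, a ratio of 2.11. After TMM scaling the sums were 6367, 6072 and 5595 CPM in the line and 4642, 4121 and 4151 CPM in its wild type, a ratio of 1.40. The groups did not overlap under either scaling, and the size of the difference depended on it. With library totals alone the median of all genes tested moved to 0.64 and that of the ribosomal protein genes to 1.21, 37 rose and 0 fell, while of all genes 10465 were then higher and 2938 lower instead of 6514 and 6068. Relative to the median of all genes, the ribosomal protein genes stood 0.58 higher with TMM and 0.57 higher with library totals. Leaf photosynthesis markers moved in the opposite direction: 7 of 7 fell, where 33.0% of all genes tested did. Their summed level was 6018 to 12210 CPM in the SnRK1 line and 38690 to 50510 CPM in its wild type. Their part in the scaling and in the ribosomal protein result was not tested. Since these are bulk seedlings, more cells of a type and more RNA per cell cannot be told apart.

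Large subunit genes rose in 13 of 15 cases, with a median log2 fold change of 0.68, and none fell. RPL27a AT1G70600, which encodes a protein of the universal uL15 family, had the highest value among the 15. It had 154, 149 and 129 CPM in the SnRK1 line and 60.5, 50.5 and 51.4 CPM in its wild type. These groups were far apart, with a log2 fold change of 1.41 (SE 0.14, edgeR adjusted p = 1.59e-07). RPL18, a protein that bacterial ribosomes lack, had 158, 184 and 162 CPM in the line, against 76.8, 73.7 and 69.3 CPM in its wild type, a log2 fold change of 1.19 (SE 0.12, edgeR adjusted p = 1.07e-07). RPL10A, a protein added late to the large subunit and known in Arabidopsis from antiviral signalling, had 375, 344 and 303 CPM in the line and 200, 163 and 176 CPM in its wild type (log2 fold change 0.93, SE 0.13). RPL7 AT2G01250 had 162, 149 and 148 CPM in the line and 83.8, 84.3 and 84.0 CPM in its wild type (log2 fold change 0.87, SE 0.12). In all 4 genes the lowest library of the line lay above the highest of the wild type.

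RPL3A and RPL4 were the large subunit genes that did not pass the test. RPL3A, whose product reaches into the peptidyl transferase centre, had 473, 378 and 352 CPM in the SnRK1 line, against 431, 330 and 343 CPM in its wild type, and the groups overlapped (log2 fold change 0.12, 95% interval -0.22 to 0.46). RPL4 AT3G09630, which lines the tunnel, had 312, 292 and 261 CPM in the line and 254, 241 and 220 CPM in its wild type. Its groups did not overlap, but its log2 fold change of 0.27 (SE 0.12) missed the threshold with an edgeR adjusted p of 0.0555. RPL8 AT2G18020, another protein beside the catalytic centre, averaged 311.1 ± 31.9 CPM in the line and 205.8 ± 27.3 CPM in its wild type (SD, n = 3 each), and rose with a log2 fold change of 0.59.

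The other large subunit genes with no listed paralogue rose by similar amounts. RPL24B, which in Arabidopsis supports reinitiation after upstream open reading frames, averaged 123.6 ± 5.15 CPM in the SnRK1 line and 77.29 ± 2.97 CPM in its wild type, a log2 fold change of 0.68. RPL36 AT2G37600 was the least abundant of them, at 14.06 ± 1.0 CPM in the line and 9.315 ± 1.58 CPM in its wild type (log2 fold change 0.57). RPL28 AT2G19730 averaged 132.3 ± 3.93 CPM in the line and 92.94 ± 8.52 CPM in its wild type (log2 fold change 0.51), and RPL38 AT2G43460 averaged 66.09 ± 1.89 CPM and 46.93 ± 1.5 CPM (log2 fold change 0.49). The last 3 encode proteins that bacterial ribosomes lack.

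**Figure D2:**
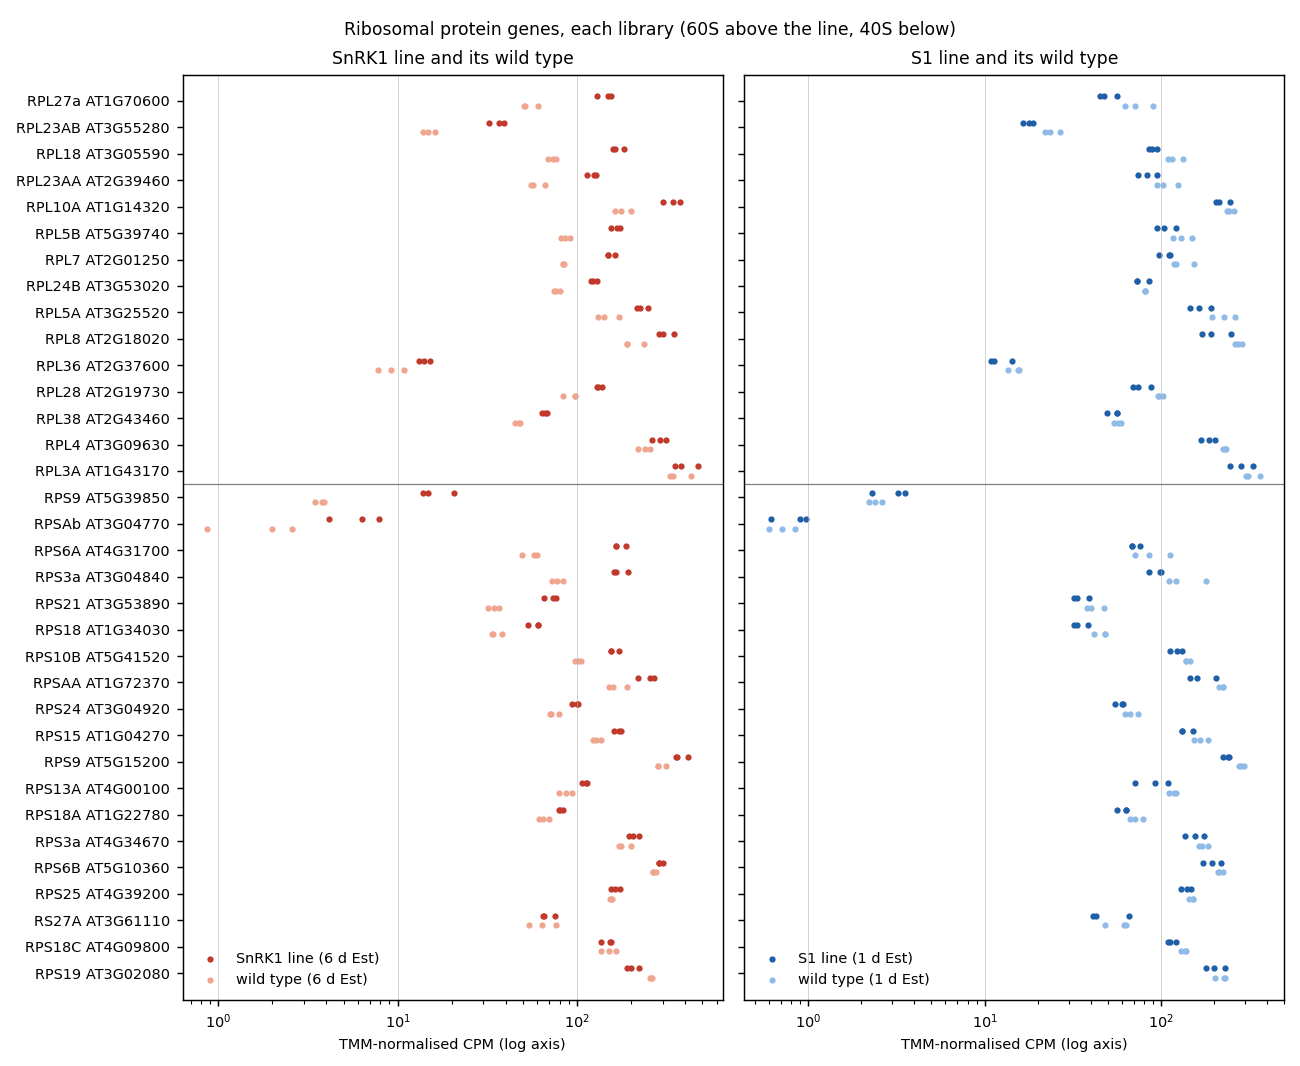
TMM-normalised CPM of 34 of the 38 genes in every library, on a log axis, for the SnRK1 line and its wild type (left) and the S1 line and its wild type (right). Each point is 1 library; genes of the 60S subunit are above the line and those of the 40S subunit below it, ordered by log2 fold change in the SnRK1 comparison. The red points lie to the right of their wild type for most genes, and 2 genes of the 40S subunit lie far to the left of the rest.

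Small subunit genes rose in 16 of 23 cases, 1 fell and 6 did not pass the test, with a median log2 fold change of 0.42. Of those with no listed paralogue, RPS21 AT3G53890 had the highest value. It had 73.7, 76.4 and 65.4 CPM in the SnRK1 line, against 36.9, 34.6 and 32.0 CPM in its wild type. The log2 fold change was 1.05 (SE 0.12, edgeR adjusted p = 7.56e-07). RPS10B averaged 159.9 ± 10.3 CPM in the line and 100.9 ± 3.8 CPM in its wild type (log2 fold change 0.67). RPS24 AT3G04920 averaged 98.58 ± 3.98 CPM and 73.83 ± 4.83 CPM (0.42), RPS15 averaged 168.4 ± 7.85 CPM and 129.0 ± 6.58 CPM (0.38), and RPS13A averaged 110.6 ± 4.16 CPM and 86.88 ± 7.57 CPM (0.35), each with the line before its wild type and the log2 fold change in brackets. RPS13A lost its call when any of 4 single libraries was left out, with edgeR adjusted p between 0.0687 and 0.141.

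RPS19 AT3G02080, a protein of the head of the small subunit, was the gene that fell. It had 222, 200 and 191 CPM in the SnRK1 line and 260, 255 and 261 CPM in its wild type. The groups did not overlap and the log2 fold change was -0.34 (SE 0.12, edgeR adjusted p = 0.0217). With library totals alone its log2 fold change was 0.25 (edgeR adjusted p = 0.0698), so its direction depended on the scaling. RPS25 AT4G39200 had 173, 162 and 154 CPM in the line and 154, 153 and 157 CPM in its wild type, and RS27A, the zinc-binding protein S27, had 75.1, 65.2 and 64.3 CPM in the line and 76.8, 54.0 and 63.5 CPM in its wild type. Both overlapped, with log2 fold changes of 0.08 (95% interval -0.15 to 0.30) and 0.07 (95% interval -0.29 to 0.43).

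**Figure D3:**
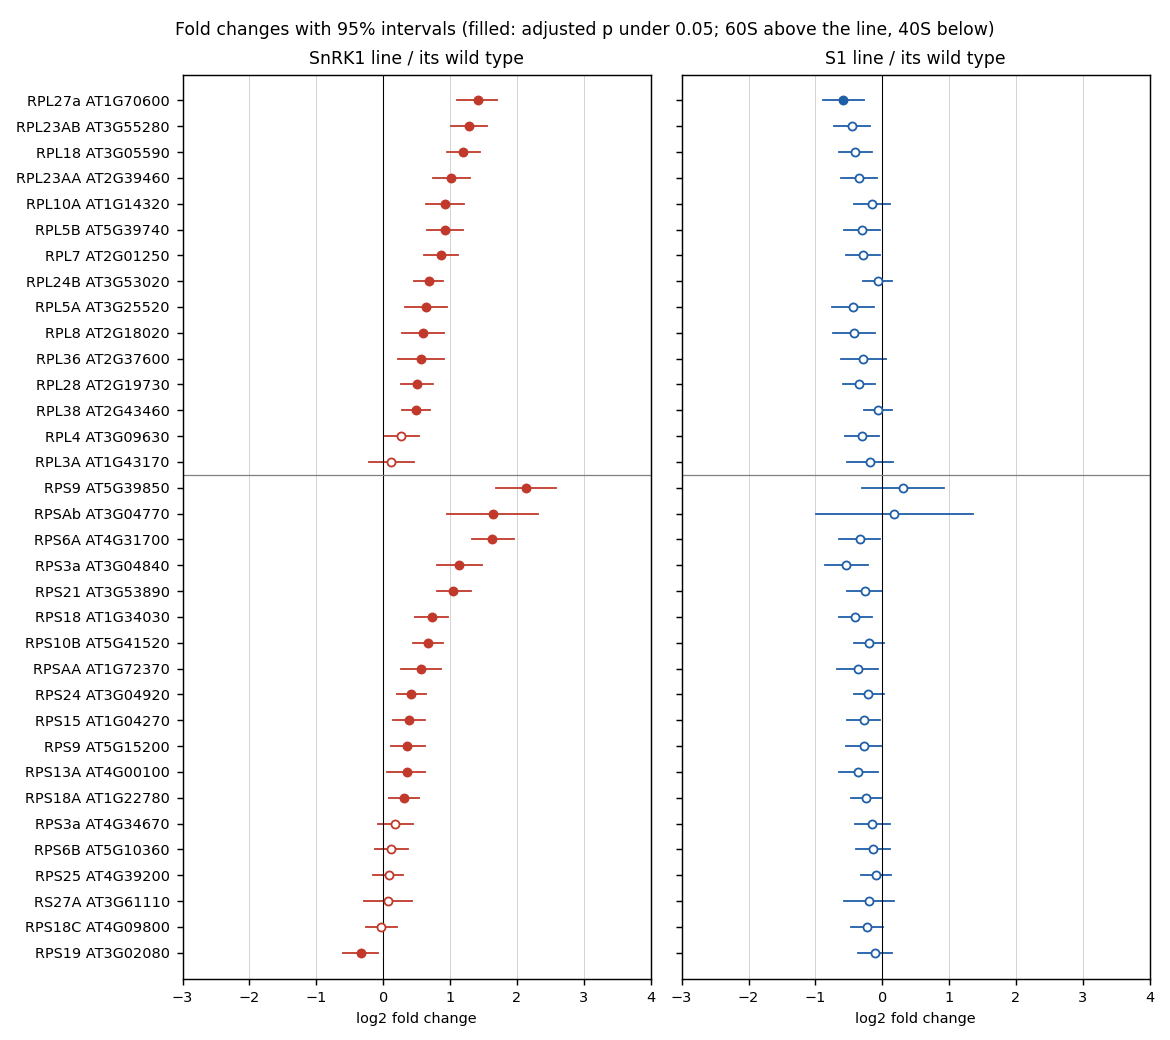
Log2 fold changes of 34 of the 38 genes with 95% intervals for the SnRK1 line against its wild type (left) and the S1 line against its wild type (right). Filled points passed an adjusted p under 0.05 and open points did not. On the left 26 filled points lie above 0 and 1 below, RPS19 AT3G02080, whose sign turns with library totals, and on the right the filled point is RPL27a AT1G70600.

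Within families, the less abundant paralogue had the larger fold change. To rank paralogues without the libraries of the SnRK1 comparison, their level was taken from the wild type of the S1 line. In 9 of 9 families the lowest paralogue by that level had a higher log2 fold change than the highest one, with differences of 0.26 to 2.14 and a median of 0.96. Paralogues in a family share sequence and are not independent replicates. Their coding sequences were 67.4% (RPSa) to 92.7% (RPL5) identical, while at most 6.2% of the 50-base stretches of a member also occurred in another gene. How reads with several hits were handled is not stated in those sources.

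RPS6, the small subunit protein that S6 kinase phosphorylates downstream of TOR, showed the largest shift between abundant paralogues. RPS6A (chr4:15345979-15347804, TAIR10.1, minus strand) had 166, 187 and 165 CPM in the SnRK1 line and 60.0, 49.2 and 57.4 CPM in its wild type. RPS6B (chr5:3258404-3260254, minus strand) had 302, 287 and 287 CPM in the line and 276, 265 and 267 CPM in its wild type. RPS6A thus rose (log2 fold change 1.63, SE 0.15, edgeR adjusted p = 4.99e-08), while RPS6B, at 0.12 (SE 0.12), did not pass the test although its groups did not overlap. RPS6A made up 35.4%, 39.4% and 36.5% of the counts of the pair in the line, against 17.9%, 15.7% and 17.7% in its wild type. The difference of 20.0 percentage points had a two-sided exact permutation p of 0.10, the smallest that 3 libraries against 3 can give. The share was 24.3% to 35.1% in the wild type with 1 d of Est, so the wild type with 6 d stood below the libraries of every other group.

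RPS9 encodes a protein at the messenger entry of the small subunit. RPS9 AT5G15200 (chr5:4934810-4936429, minus strand) was the member with the highest level per length, at 375 CPM per kilobase in the SnRK1 line and 292 CPM per kilobase in its wild type. It had 415, 361 and 357 CPM in the line and 315, 282 and 283 CPM in its wild type (log2 fold change 0.36, SE 0.12, edgeR adjusted p = 0.0134). This call was lost when any of 3 single libraries was left out, with edgeR adjusted p of 0.0518 to 0.0658. RPS9 AT5G39850 (chr5:15949910-15951475, plus strand) had 13.9, 20.6 and 14.7 CPM in the line, against 3.86, 3.79 and 3.46 CPM in its wild type. Its log2 fold change was 2.14 (SE 0.22, edgeR adjusted p = 1.69e-07), and it supplied 3.25% to 5.39% of the counts of the pair in the line and 1.21% to 1.32% in its wild type.

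RPSa, which joins the small subunit late and belongs to the universal uS2 family, had 1 paralogue with few counts. RPSAb had raw counts of 33, 87 and 42 in the line and 20, 12 and 3 in its wild type, a log2 fold change of 1.64 (SE 0.32, edgeR adjusted p = 0.00027). It passed the filter through the SnRK1 line, so its direction was fixed. Its abundant paralogue RPSAA had 269, 254 and 218 CPM in the line and 191, 151 and 158 CPM in its wild type (log2 fold change 0.56, SE 0.14). Both overlap a neighbouring gene over less than 10% of their exons, RPSAA on the opposite strand and RPSAb on the same strand.

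RPS3a repeated the pattern of RPS6 at smaller size. RPS3a AT3G04840 had 164, 192 and 160 CPM in the SnRK1 line, against 77.8, 83.6 and 73.0 CPM in its wild type (log2 fold change 1.14, SE 0.16, edgeR adjusted p = 6.1e-06). RPS3a AT4G34670 had 222, 206 and 194 CPM in the line and 200, 171 and 177 CPM in its wild type, and its groups overlapped (log2 fold change 0.18, 95% interval -0.08 to 0.44). The share of the first in the counts of the pair was 42.5% to 48.3% in the line and 28.1% to 32.8% in its wild type. Among the 4 groups, the lowest shares of RPS3a AT3G04840 were those of the wild type with 6 d of Est, without overlap.

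RPS18 is represented by 3 genes, and their fold changes ran in the reverse order of their levels. RPS18C, the most abundant, had 155, 152 and 136 CPM in the SnRK1 line and 165, 150 and 136 CPM in its wild type (log2 fold change -0.03, 95% interval -0.26 to 0.21). RPS18A, whose loss gives pointed first leaves, had 80.9, 83.1 and 79.5 CPM in the line and 64.7, 69.8 and 61.2 CPM in its wild type (log2 fold change 0.31, SE 0.11, edgeR adjusted p = 0.0147). RPS18 AT1G34030, the least abundant, had 60.9, 60.9 and 53.3 CPM in the line and 38.2, 33.9 and 33.5 CPM in its wild type (log2 fold change 0.73, SE 0.11). The family sum differed less than most of its members, at 287.4 ± 15.7 CPM in the line and 250.9 ± 18.4 CPM in its wild type (SD, n = 3 each). The call of RPS18A was lost without 1 library, with edgeR adjusted p of 0.0664 without wild-type replicate 3 and 0.0517 without SnRK1 line replicate 2.

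In the 2 large subunit families both paralogues rose. RPL5A, which with RPL11 carries the 5S ribosomal RNA, had 250, 226 and 215 CPM in the SnRK1 line and 172, 131 and 141 CPM in its wild type (log2 fold change 0.64, SE 0.15). RPL5B had 168, 173 and 154 CPM in the line and 92.0, 81.6 and 86.0 CPM in its wild type (log2 fold change 0.93, SE 0.13). The share of RPL5B was 40.2% to 43.3% in the line and 34.9% to 38.4% in its wild type, without overlap. RPL23AA, which sits at the tunnel exit, had 124, 127 and 113 CPM in the line, against 66.0, 57.1 and 55.7 CPM in its wild type (log2 fold change 1.02, SE 0.13). RPL23AB had 36.5, 39 and 32.3 CPM in the line, against 14.8, 13.8 and 16.2 CPM in its wild type (log2 fold change 1.28, SE 0.13). The shares of this pair overlapped between the groups, with RPL23AB at 22.2% to 23.6% in the line and 18.3% to 22.5% in its wild type (exact permutation p = 0.20). In the other 8 families the share of the less abundant paralogue did not overlap and was higher in the line, each with the smallest p the design allows, 0.10.

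**Figure D4:**
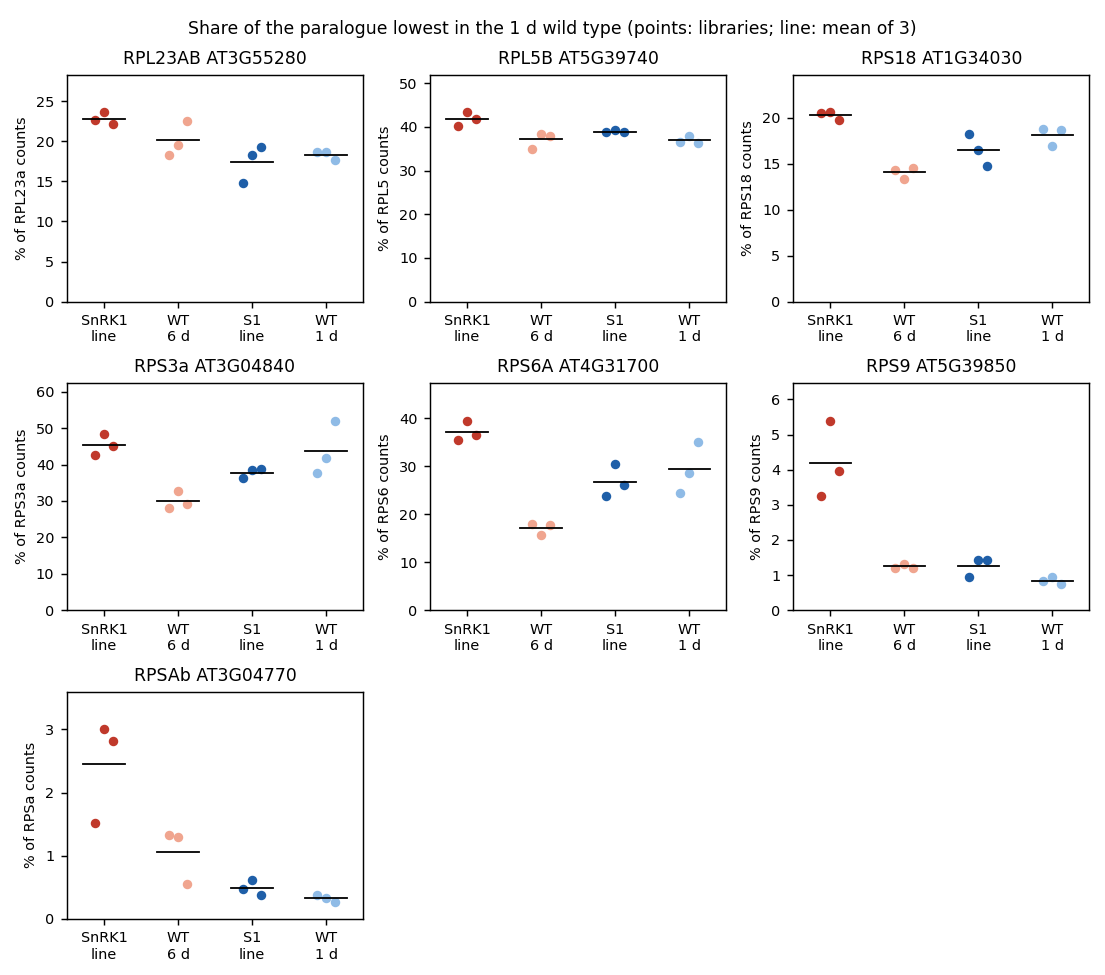
Share of the counts of a family, in percent, that came from the paralogue lowest in the wild type with 1 d of Est, for 7 families. Points are libraries and bars are means of 3; the vertical axes start at 0 and differ between panels. The share was higher in every SnRK1 line library than in every library of its wild type except for RPL23AB, and RPS6A shows the widest gap, 35.4% to 39.4% in the line against 15.7% to 17.9% in its wild type.

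Across all 38 genes, a lower level went with a larger fold change. Levels per length in the wild type of the S1 line correlated with the log2 fold change in the SnRK1 comparison at a Spearman rho of -0.65 over 38 genes, which share libraries and include paralogues. The 19 genes with the lower levels had a median log2 fold change of 0.96 and the 19 with the higher levels one of 0.36. Without the 2 genes that passed the filter through the SnRK1 line, rho was -0.58 over 36 genes, and the medians were 0.90 for the 18 lower and 0.36 for the 18 higher levels. Fold changes of genes with few counts are also the least precise. Over the 38 genes the level per length had a median of 144 CPM per kilobase in the SnRK1 line and 86.5 CPM per kilobase in its wild type, and of 88.7 CPM per kilobase in the S1 line and 110 CPM per kilobase in its wild type.

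**Figure D5:**
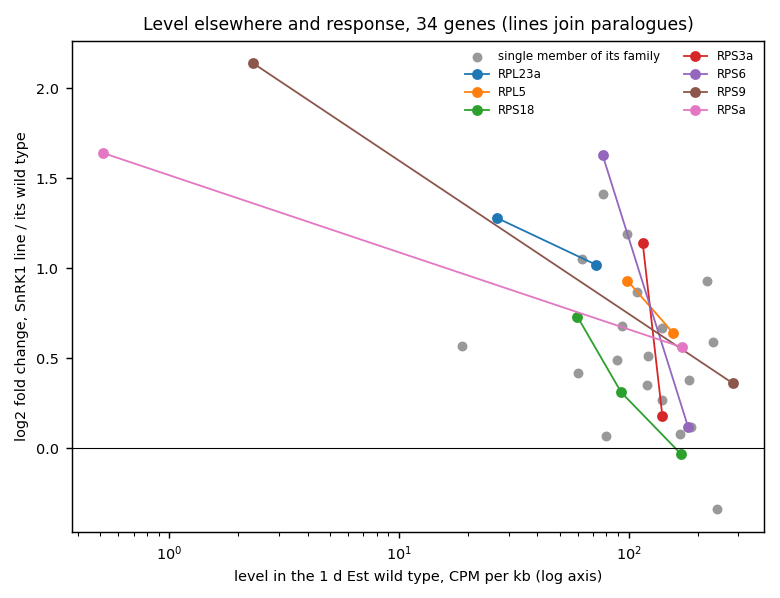
Log2 fold change in the SnRK1 comparison (vertical axis) against the level in the wild type with 1 d of Est, in CPM per kilobase on a log axis, for 34 of the 38 genes. Coloured lines join paralogues and grey points are genes with no listed paralogue. Every coloured line slopes down from the less to the more abundant paralogue, and the largest drop between paralogues that are both above 50 CPM per kilobase is in RPS6.

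The S1 line gave no such rise. Of the 38 genes 0 were called higher and 1 lower, where 1.63% and 0.952% of all genes tested were called. RPL27a AT1G70600 had 56.0, 45.0 and 47.3 CPM in the S1 line, against 70.9, 62.3 and 89.5 CPM in its wild type, and fell with a log2 fold change of -0.58 (SE 0.14, edgeR adjusted p = 0.0379). The call was lost with library totals (edgeR adjusted p = 0.0746) and when any of 4 single libraries was left out (0.0614 to 0.202). The median log2 fold change of the 38 was -0.29, against 0.00 for all genes tested. Of the 38 values 36 were negative and 2 positive, where 9048 of the 18388 genes tested had positive values. An unadjusted edgeR p under 0.05 was found for 21 of the 38 and for 2992 of the 18388. In 21 genes every S1 line library was below every wild-type library and in 0 every library was above, as in 12.0% and 11.6% of all genes tested. Summed after TMM scaling, the genes reached 4434, 3643 and 3931 CPM in the S1 line and 4837, 4670 and 5033 CPM in its wild type, without overlap. Some genes that stood high in the SnRK1 comparison had intervals that included 0 here: RPS9 AT5G39850 had a log2 fold change of 0.31 (95% interval -0.31 to 0.93) and RPSAb one of 0.18 (95% interval -0.99 to 1.35). The share of the lowest paralogue was also higher without overlap in the S1 line for RPL5B, RPS9 AT5G39850 and RPSAb. The differences were 2.05, 0.435 and 0.164 percentage points, against 4.69, 2.95 and 1.39 in the SnRK1 comparison. Each had an exact permutation p of 0.10, and RPS9 AT5G39850 and RPSAb had few counts here. In the other families with more than 1 gene this share overlapped between the S1 line and its wild type.

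The wild types differed from each other as well. In the wild type with 6 d of Est, compared with that with 1 d, 15 of the 38 genes fell and 0 rose, against 5.94% and 6.17% of all genes tested. Days of Est, days on the earlier medium and any difference between the experiments cannot be told apart in this comparison, and it shares its libraries with both of the others. RPL23AA averaged 59.60 ± 5.59 CPM with 6 d and 107.4 ± 15.3 CPM with 1 d (log2 fold change -0.84, edgeR adjusted p = 0.000908). RPS3a AT3G04840 averaged 78.16 ± 5.31 CPM and 137.4 ± 36.2 CPM (log2 fold change -0.81, edgeR adjusted p = 0.0037), and RPL18 averaged 73.27 ± 3.80 CPM and 119.3 ± 12.3 CPM (log2 fold change -0.70, edgeR adjusted p = 0.00139), with 6 d given first. RPL23AB, RPS6A, RPL36 AT2G37600, RPL7 AT2G01250, RPL5A, RPL5B and RPS10B were the next by p, with log2 fold changes between -0.70 and -0.48. The large subunit held 9 of the 15. The count was 8 when wild-type replicate 2 or 3 with 6 d, or replicate 3 with 1 d, was left out.

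The responses of the lines were compared by the difference of their log2 fold changes. It was positive and called for 30 of the 38 genes and negative and called for 0, against 27.2% and 27.3% of all genes tested, with a median of 0.90. For RPL27a AT1G70600 the difference was 1.99 (SE 0.20, edgeR adjusted p = 8.92e-07), and for RPS6A it was 1.98 (SE 0.21, edgeR adjusted p = 1.3e-06). RPL23AB differed by 1.73, RPS3a AT3G04840 by 1.67 and RPL18 by 1.60. The 8 genes not called included RPS6B at 0.26, RPS18C at 0.20, RPS25 AT4G39200 at 0.17 and RPS19 AT3G02080 at -0.23. Because each line had its own wild type and duration of Est, the difference between the lines and the difference between the treatments cannot be told apart.

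Other genes of ribosome production were counted in the same fits. A text rule on the annotation found 185 further genes of the cytosolic ribosome, of which 171 were tested. In the SnRK1 line 108 rose and 13 fell, against 35.4% and 33.0% of all genes tested, with a median log2 fold change of 0.52. AT2G32220, a gene of the L27e family, stood highest at 4.41, but it had at most 0.386 CPM in the wild type and passed the filter through the SnRK1 line, so its direction was fixed and its fold change is no bound. It was followed by AT3G57490 at 2.06 and AT5G59850 (S8 family) at 2.04. The lowest were AT3G14595 at -1.56 and EMB3136 at -1.55. These are doubtful members of the list: the annotation of EMB3136 also names the chloroplast, and that of AT3G14595 gives no ribosome location. In the S1 line 0 of the 171 rose and 4 fell: AT3G07110 (L13 family) at -0.66, AT2G21580 (S25 family) at -0.49, RPL24A at -0.51 and AT4G16720 (L23/L15e family) at -0.51. Of all genes tested 1.63% rose and 0.952% fell there.

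Ribosome biogenesis factors rose in 18 of 24 cases in the SnRK1 line and 2 fell, against 35.4% and 33.0% of all genes tested. Their median log2 fold change was 1.22. NOP56, a core protein of box C/D small nucleolar particles, had 82.8, 105 and 88.8 CPM in the line, against 12.2, 9.55 and 12.1 CPM in its wild type (log2 fold change 3.03, SE 0.15, edgeR adjusted p = 3.92e-11). FIB2, the methyltransferase fibrillarin of the same particles, rose by a log2 fold change of 3.17 and the nucleolin gene NUC2 by 3.49. NUC2 had at most 0.577 CPM in its wild type and passed the filter through the SnRK1 line, so its direction was fixed. Without such genes 17 of 23 rose, against 30.9% of all genes tested. BRX1-1 fell by 1.58 and REIL1 by 1.15 on the log2 scale. In the S1 line 0 of the 24 were called, and 0 were called by library totals. An unadjusted edgeR p under 0.05 was found for 9 of the 24 and for 2992 of the 18388 genes tested.

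Translation factors rose in 11 of 20 cases and 2 fell (18 and 0 by library totals), against 35.4% and 33.0% of all genes tested. Their median log2 fold change was 0.54. The translation factor eIF5A-3 had a log2 fold change of 1.41, the cap-binding protein eIF4E one of 1.35 and eIFiso4G2 one of 1.09, whereas eIF3H had -0.75 and the helicase eIF4A1 -0.57. In the S1 line the poly(A)-binding protein PAB8 was called, at -0.53. Of 14 genes of translation control 4 were higher and 7 lower (6 and 4 by library totals), where 35.4% and 33.0% of all genes tested were called. S6K2, a kinase of RPS6, had 51.2, 38.7 and 44.2 CPM in the SnRK1 line and 16.5, 19.3 and 17.9 CPM in its wild type (log2 fold change 1.32, SE 0.13). S6K1, the other S6 kinase and the more abundant of the pair in both groups, had 107, 97.7 and 117 CPM in the line and 211, 235 and 210 CPM in its wild type, and fell (log2 fold change -1.03, SE 0.12, edgeR adjusted p = 8.62e-07). TCP20 stood at 1.12 and ANAC082 at 0.38, and the MA3-domain regulators MRF4, MRF3 and MRF1 at -2.78, -1.35 and -1.34.

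Nuclear genes for ribosomal proteins of chloroplasts and mitochondria did not follow the cytosolic ones. Of 22 tested, 2 rose and 13 fell in the SnRK1 line (7 and 7 by library totals), against 35.4% and 33.0% of all genes tested. Their median log2 fold change was -0.39. The lowest were AT5G24490 at -2.62, PSRP6 at -1.83 and AT1G66890 at -1.72, and AT5G39800 and AT5G40080, both annotated as mitochondrial L27, were higher at 1.74 and 1.21, the second having passed the filter through the SnRK1 line. In the S1 line 0 of the 22 were called, and 0 were called by library totals. An unadjusted edgeR p under 0.05 was found for 2 of the 22 and for 2992 of the 18388 genes tested.

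Markers of dividing and meristem cells were measured beside these genes. Of 15 listed, 12 were tested, and 4 rose and 1 fell in the SnRK1 line (8 and 0 by library totals), a share of rises near the 35.4% of all genes tested. The summed level of the 15 was 79.0 to 110 CPM in the line and 28 to 39.2 CPM in its wild type. TSO2, a subunit of ribonucleotide reductase, contributed 38.5, 65.4 and 49 CPM in the line and 6.56, 6.09 and 5.77 CPM in its wild type (log2 fold change 3.04). PCNA1 had a log2 fold change of 2.95, MCM2 one of 1.96 and MCM5 one of 1.38, all genes of DNA replication. The mitotic genes CYCB1;1, CYCB1;2, CDKB2;1, CDKB2;2 and KNOLLE did not pass the test, with log2 fold changes of 0.84, 0.25, -0.04, 0.24 and 0.23, while the meristem gene STM had -1.72, and the meristem genes CLV3 and WUS were at 0 in the 6 libraries of this comparison. The sum was 34.2 to 43.4 CPM in the S1 line and 49.5 to 60.8 CPM in its wild type. Root markers summed to 4.81 to 17.4 CPM in the SnRK1 line and 19.0 to 24.2 CPM in its wild type. Where 33.0% of all genes tested were lower, 3 of the 4 tested root markers were: CASP2 at -4.64, CASP1 at -2.88 and PHT1;1 at -1.16. The remaining tested one, IRT1, stood at 1.51 and did not pass the test (edgeR adjusted p = 0.20). It had 0.125, 11.0 and 0.3 CPM in the line and 1.93, 1.32 and 0.866 CPM in its wild type. The sum of 17.4 CPM belongs to the library in which IRT1 had 11.0 CPM. Green leaf markers fell by 1.86 to 2.44 on the log2 scale, with RCA, RBCS1A and LHCB4.1 the lowest. The part of these cell type markers in the ribosomal protein result was not tested.

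Promoters of ribosomal protein genes are known to carry the telo-box and site II elements. The letters searched on both strands were AAACCCTA for the telo-box, TGGGCC or TGGGCT for site II and ACGTG, the core of elements bound by bZIP factors, from 250 bases before to 50 after the annotated start in TAIR10.1. A telo-box lay in 19 of the 38 promoters, in 45.4% of those of the 185 further ribosome genes and in 6.20% of all 26709 promoters read. Site II letters lay in 71.1%, 73.5% and 22.0% of the same sets, and ACGTG in 18.4%, 22.7% and 26.9%. In the 200 bases before the start alone the telo-box share of the 38 was 13.2%, because most of these boxes lay after the start.

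The 19 genes with a telo-box had a median log2 fold change of 0.42 in the SnRK1 comparison, and 12 of them rose. The 19 without one had a median of 1.02, and 17 of them rose. For site II the medians were 0.64 in 27 genes with it and 0.56 in 11 without, and for ACGTG 0.96 in 7 genes with it and 0.59 in 31 without. These are descriptions of letters in a window, with no test.

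The 120 bases before the annotated start are shown for the RPS6 and RPS9 pairs, whose paralogues differed widely in fold change, 5′ to 3′ on the gene's strand, with matches to the searched letters on either strand in capitals. They lie at chr4:15347805-15347924 (RPS6A), chr5:3260255-3260374 (RPS6B), chr5:15949790-15949909 (RPS9 AT5G39850) and chr5:4936430-4936549 (RPS9 AT5G15200) of TAIR10.1, with the paralogue of the larger fold change first in each pair.
RPS6A: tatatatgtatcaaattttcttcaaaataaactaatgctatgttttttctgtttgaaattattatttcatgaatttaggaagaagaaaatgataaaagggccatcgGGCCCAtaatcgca
RPS6B: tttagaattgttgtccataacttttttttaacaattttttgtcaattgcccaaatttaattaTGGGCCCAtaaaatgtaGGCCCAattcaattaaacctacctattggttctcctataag
RPS9 AT5G39850: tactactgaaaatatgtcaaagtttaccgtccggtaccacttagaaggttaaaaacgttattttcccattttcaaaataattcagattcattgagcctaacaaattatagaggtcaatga
RPS9 AT5G15200: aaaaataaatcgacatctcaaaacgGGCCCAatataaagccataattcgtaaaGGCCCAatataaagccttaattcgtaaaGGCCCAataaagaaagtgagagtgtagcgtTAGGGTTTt
In this stretch RPS6A held 1 match to site II and RPS6B held 3. RPS9 AT5G39850 held 0, whereas RPS9 AT5G15200 held 3 with a telo-box beside its start. In the longer window used for the shares, RPS6A held 2 site II matches, RPS6B 3 and a telo-box after the start, RPS9 AT5G39850 2, both after the start, and RPS9 AT5G15200 4. The absence of these letters in a window of this length says nothing about the factors that bind there.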

How the data were processed

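RNA of 12 seedling libraries was sequenced, 3 in each of 4 groups. Libraries were prepared with a NEBNext mRNA kit from 5 µg of RNA, per the labels' protocols. Values deposited are raw counts, whole numbers whose total differs between libraries. FastQC, Bowtie 0.12.8, SAMtools 0.1.18 and TAIR10 were used, per the submitters' processing notes; the sources used here give neither the role of each tool nor the counter, the strand or how multiply mapped reads were treated. Whether the 3 samples of a group are separate cultures is not in the labels, and p-values therefore reflect only their spread, possibly technical. Replicates correlated at 0.970 to 0.986 on log CPM, and none agreed within sampling noise.

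Counts were fitted with edgeR 4.0.16 in R 4.3.3: filterByExpr with a minimum count of 10 left 18388 genes, TMM scaling, 1 quasi-likelihood fit of all 12 libraries on group, and Benjamini-Hochberg adjustment over all genes tested. The common biological coefficient of variation was 13.2%. All 38 genes passed the filter. The fit was tested on simulated data drawn from the real means: of 200 genes changed 2-fold among 17823, 90% were recovered, with 4.3% false calls, in a simulation of the SnRK1 comparison. The simulation had no shift in library composition and far fewer changed genes than were called in the real comparison. Its rates therefore do not carry over to that comparison. Shares of paralogues were compared by an exact permutation test over libraries with scipy 1.17.1, and figures were drawn with matplotlib 3.10.9 in Python 3.11.15. Standard errors were derived from the F statistic; 95% intervals use them.

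Names, coordinates, overlaps and promoters came from the RefSeq annotation of TAIR10.1, which matched 38 of 38 loci and 28009 of the 28775 genes by locus code. CPM per kilobase uses the longest annotated transcript. Genes were named by a rule: the targeted genes, all 38 loci by level and fold change, per-library values for the 9 families and for the 5 highest and 5 lowest of the other loci, up to 10 called loci by p in the other comparisons, and of each other list the 3 highest and 3 lowest called genes. The loci, lists and rule were chosen with earlier results of these data known. The list of further ribosomal protein genes comes from a text rule on product and note, and takes in some doubtful entries. Alternatives tried were RLE size factors, library totals, no filter, limma-voom (limma 3.58.1), DESeq2 1.42.0, at least 5 CPM in at least 3 libraries, the groups compared alone, a replicate block, each library left out, loci that overlap or share sequence left out, a fold change of at least 2, shares per kilobase and a 200-base promoter window. Some loci are not reported here by name or drawn, while counts and medians over the 38 include them. Leaving out genes that reach the filter's minimum of 1.5 CPM in 3 libraries only when those of the SnRK1 line are counted was added after seeing the data. Protein sequences are not used here. 0 library columns were left unmatched.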

Additional observations from a re-analysis of the deposited data

Results flagged for a closer look

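The responses of the 2 lines differed by the test of the difference itself for 30 of the 38 genes, each with a larger log2 fold change in the SnRK1 line than in the S1 line. Among those with the smallest p were RPL27a AT1G70600 (difference 1.99), RPL18 (1.60), RPL23AB (1.73), RPS6A (1.98), RPS21 AT3G53890 (1.31), RPS3a AT3G04840 (1.67), RPL23AA (1.37), RPL5B (1.24) and RPS18 AT1G34030 (1.13). All 9 kept direction and call in every setting tried. All but RPS21 were also called lower in the wild type with 6 d of Est than in that with 1 d; the part of that difference in the result was not tested. Groups of 3 libraries are too small for a test of single outlying samples.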

How the results depend on the processing

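In the SnRK1 comparison 26 of the 30 called genes kept direction and call in every setting tried other than a fold change of at least 2. The gene called lower was lost with library totals, with only the groups compared in the fit and with a fold change of at least 2, which gave 0, and the last setting left 10 called higher. Library totals moved the median log2 fold change to 1.21, and that of the difference between responses to 1.38. Leaving out single libraries gave 26 to 30 genes higher, 1 lower and medians of 0.54 to 0.68. Signs turned for genes near 0: RPS18C with library totals (0.57), with at least 5 CPM in at least 3 libraries (0.01) and without wild-type replicate 1 (0.04), RPL3A without SnRK1 line replicate 1 (-0.02), RS27A without that library (-0.01) or wild-type replicate 2 (-0.06), and RPS19 with library totals (0.25). Over all single libraries left out, RPL3A ran from -0.02 to 0.24, RPS18C from -0.10 to 0.04 and RS27A from -0.06 to 0.21. RPS18C was called higher with library totals (edgeR adjusted p = 0.000148).

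In the S1 comparison the count called lower was 0 with library totals or a fold change of at least 2, and 2 with DESeq2 or with only the groups compared. Leaving out single libraries gave 0 to 1, with medians of -0.36 to -0.22. Between wild types 1 gene was called higher with DESeq2 or with only the groups compared, 0 were lower at a fold change of at least 2, and leaving out single libraries gave 0 to 1 higher, 8 to 12 lower and medians of -0.37 to -0.27. The difference between responses was called higher for 16 genes at a fold change of at least 2 and for 28 to 31 when single libraries were left out (medians 0.80 to 1.04). Summed CPM ratios were 1.40 (SnRK1) and 0.826 (S1) with TMM instead of 2.11 and 0.898, and the telo-box share was 13.2% in the shorter window. The causes were not tested.

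Same-numbered samples correlated at -0.0917 to 0.118, so replicate numbers do not pair them. With a replicate block 30 genes were higher and 1 lower in the SnRK1 comparison, 2 were lower in the S1 line, 18 were lower between wild types, and 30 were higher in the difference between responses. Leaving out overlapping or sequence-sharing loci removed none. Genes of few counts, such as RPSAb, limit what these depths resolve.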
